A study of Mus musculus with 12 samples.

Results

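The Frizzled genes Fzd1 to Fzd10 were taken as the probes that the scanner files name for them, and all 10 genes, with 13 probes, were found among the 55681 probes of the array. Frizzled proteins are receptors that span the cell membrane and bind secreted WNT ligands together with the co-receptors Lrp5 and Lrp6. Ligand binding stops the destruction complex that holds GSK3, so that beta-catenin builds up and acts with TCF and LEF factors in the nucleus, and some receptors also signal without beta-catenin. By sequence the family falls into Fzd1, Fzd2 and Fzd7, then Fzd5 and Fzd8, then Fzd4, Fzd9 and Fzd10, and finally Fzd3 and Fzd6. WNT signals from the medial edge of the cortex take part in forming the hippocampus.

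RNA of neurons derived from mouse embryonic stem cells (male, strain background 129/Ola) was measured at day 16 of differentiation on 8 arrays, 2 for each of 4 groups. From day 0 every group was given 53AH, which inhibits the WNT pathway, at 2.5 µM and LDN193189, which inhibits BMP receptors, at 0.25 µM. Both were kept until day 11 in WiBi_0-11 and until day 16 in WiBi_0-16. In CHIR_8-16 they ended at day 8 and the agonist CHIR, a GSK3 inhibitor that acts downstream of the Frizzled receptors, followed at 3 µM until day 16. The durations in the protocol text would place that switch earlier. CHIR_11-16 had the agonist from day 11 to day 16, with no dose given in the labels. Per the labels the WiBi 11 cultures are isocortical and the CHIR8 cultures hippocampal. From E15 embryos (Sv129s6, mixed sex) 4 tissues were measured on 1 array each, namely midbrain, cortex, hippocampus and ventral telencephalon. RNA of 3 sets of experiments was pooled for each sample, and nothing states that replicates were separate cultures, so the p-values below reflect how far these samples vary, possibly for technical reasons only.

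A level is the log2 signal of a probe minus the log2 of the 75th percentile of its array, so 0 stands for that percentile, and levels of different probes are not set against each other. The share of spots well above background ran from 59.06% to 71.18% per array. Replicate 1 of every culture group lay on slide 2, replicate 2 on slide 3 and the tissues on slide 1. The culture arrays of slide 2 and slide 3 differed for 34.4% of 25539 genes (limma, adjusted p under 0.05). Slide and replicate number coincide, so a slide difference cannot be told apart from one between replicate sets. Because of it, differences are also given with the slide as a block and, for the main ones, within each slide. For the receptors an SE is from the fit without the block unless the block is named. In CHIR_8-16 20.3% of genes differed at least 2-fold between the replicates, against 12.1% in WiBi_0-11, 15.7% in WiBi_0-16 and 16.7% in CHIR_11-16. All 8 neuronal markers were well above background on every culture array. Of the 13 Frizzled probes 12 passed the filter for dim probes and the other, the second probe of Fzd5, was well above background on 0 culture arrays. Fzd6 passed only through CHIR_11-16.

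Fzd2, Fzd5 and Fzd7 each have 2 probes, and a pair from different genes is nearly the same sequence. The brighter Fzd2 probe (mm9, chr11:102467613-102467672, plus strand) and the second Fzd7 probe (mm9, chr1:59541367-59541426, plus strand) share 42 of 50 aligned bases. They are shown because a signal of either gene could be read on the other's probe, which was not tested. Capitals mark the bases that are identical in the aligned stretch.
Fzd7 second probe: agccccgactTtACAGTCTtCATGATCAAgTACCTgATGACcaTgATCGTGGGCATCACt
Fzd2 brighter probe: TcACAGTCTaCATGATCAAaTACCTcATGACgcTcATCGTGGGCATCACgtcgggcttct

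The upstream sequences of Fzd9 and Fzd10 are shown because these genes had the largest differences among the receptors measured in most cultures. RefSeq promoter entries (GRCm38.p6) matched 6 of the 10 genes, Fzd1, Fzd4, Fzd5, Fzd7, Fzd9 and Fzd10. The TCF and LEF core letters CTTTGAA and CTTTGAT, searched on both strands with no overlap between them, were in 0 of these 6 windows of 300 bases and in 8.65% of 32851 promoters. The 250 bases before the start site follow for Fzd9 (chr5:135251048-135251297, minus strand) and Fzd10 (chr5:128600856-128601105, plus strand), with each CG pair in capitals. Fzd9 holds 42 CG pairs and Fzd10 37, against a median of 6 over all promoters.
Fzd9: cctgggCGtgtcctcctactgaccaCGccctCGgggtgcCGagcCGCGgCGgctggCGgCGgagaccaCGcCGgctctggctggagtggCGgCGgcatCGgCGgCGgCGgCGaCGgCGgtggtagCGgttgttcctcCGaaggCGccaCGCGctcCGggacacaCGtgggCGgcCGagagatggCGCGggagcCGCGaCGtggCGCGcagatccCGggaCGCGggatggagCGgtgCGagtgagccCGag
Fzd10: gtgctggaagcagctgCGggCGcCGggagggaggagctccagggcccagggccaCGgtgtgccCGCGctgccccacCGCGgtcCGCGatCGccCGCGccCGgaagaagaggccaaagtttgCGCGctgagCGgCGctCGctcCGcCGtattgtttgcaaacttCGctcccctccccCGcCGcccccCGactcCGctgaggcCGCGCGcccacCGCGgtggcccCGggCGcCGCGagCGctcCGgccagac

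**Figure D1:**
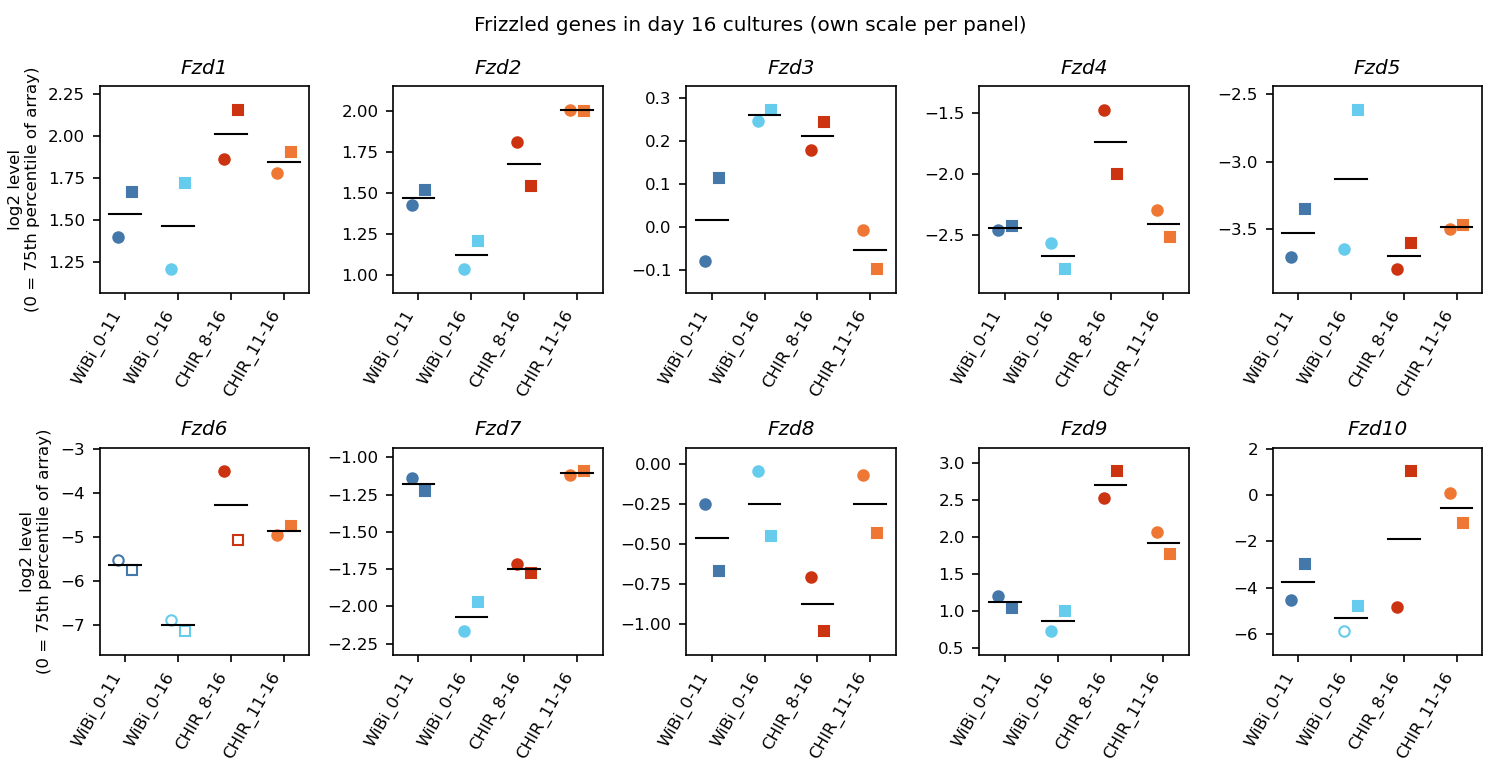
Log2 level of each Frizzled gene (vertical axis, own scale per panel) in the 4 culture groups, circles for replicate 1 on slide 2 and squares for replicate 2 on slide 3, open where the probe was not well above background, with the group mean as a line. All 4 agonist arrays lie above all 4 inhibitor-only arrays for Fzd1, Fzd2 and Fzd9. They do so too for Fzd6, which passed the filter only through an agonist group. Its inhibitor-only symbols are open, and so is that of CHIR_8-16 replicate 2, its lowest agonist array.

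With agonist cultures (CHIR_8-16 and CHIR_11-16) set against inhibitor-only cultures (WiBi_0-11 and WiBi_0-16), Fzd9 was the receptor with the clearest difference. Fzd9 had a log2 level of 1.20 and 1.04 in WiBi_0-11 and of 0.73 and 0.997 in WiBi_0-16. It had 2.53 and 2.89 in CHIR_8-16 and 2.07 and 1.77 in CHIR_11-16. The 4 agonist arrays thus did not overlap the 4 inhibitor-only arrays, and both CHIR_8-16 arrays lay above both CHIR_11-16 arrays. The difference was 1.32 on the log2 scale (SE 0.25, 2.49-fold), with 1.33 within slide 2 and 1.31 within slide 3. It missed the threshold without a block (limma, adjusted p = 0.083) and passed with the slide as a block (limma, adjusted p = 0.046). The 7 oligodendrocyte lineage markers moved with the groups too, with a mean log2 level of 0.57 to 1.45 in inhibitor-only and -1.52 to 0.0029 in agonist cultures, although their summed levels overlapped (6140 to 8919 and 4152 to 21649 percent of the 75th percentile) and 6 or 7 of 7 were well above background on every culture array. Their part in the Fzd9 difference was not tested. Leaving out any 1 array ended the call, with block-adjusted limma p of 0.070 to 0.13 and log2 differences of 1.10 to 1.54.

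Of the 10 receptors 0 were called in the agonist comparison without the block, where 0.00783% of all genes were called, and 1 with it, where 3.21% were. Fzd6 passed the filter only through an agonist group, which favours a higher level there, so it is left out of the next counts. Of the other 9 receptors 4 (Fzd1, Fzd2, Fzd9 and Fzd10) had an unadjusted p under 0.05 in limma without the block, beside 15.3% of 24456 genes left after the same omission. In 3 of the 9 (Fzd1, Fzd2 and Fzd9) all agonist arrays lay above all inhibitor-only arrays, as in 6.61% of those genes and 6.72% of all genes tested. Of the 9, 6 were higher and 3 lower. Fewer cells of a type and less RNA per cell cannot be told apart in such bulk samples.

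**Figure D2:**
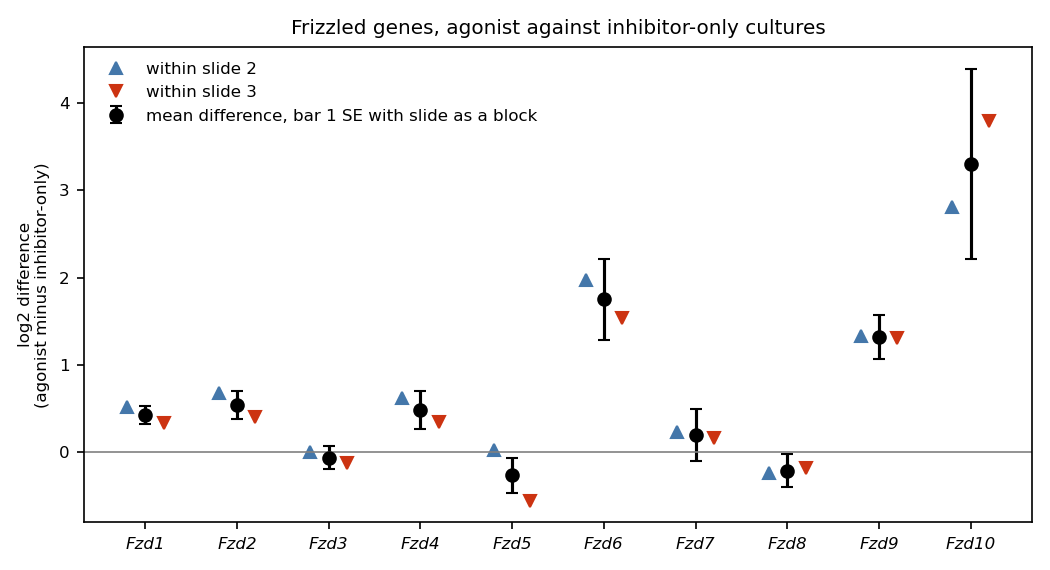
Log2 difference between agonist and inhibitor-only cultures for each Frizzled gene, as the mean with 1 SE (slide as a block) and within each slide. Fzd10 has the highest mean (3.30) and the widest error (SE 1.09), while the values of Fzd9 within the slides are 1.33 and 1.31.

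Among Fzd1, Fzd2 and Fzd7, Fzd1 and Fzd2 were higher with the agonist and Fzd7 differed between the groups in another order. Fzd1 stood at 1.40 and 1.67 in WiBi_0-11, 1.21 and 1.72 in WiBi_0-16, 1.87 and 2.16 in CHIR_8-16, and 1.78 and 1.91 in CHIR_11-16. Its agonist difference of 0.43 (SE 0.16, 0.52 and 0.34 within the slides) missed the threshold (limma, adjusted p = 0.23, and 0.069 with the block). The lowest agonist array lay just above the highest inhibitor-only array. Fzd2 stood at 1.43 and 1.52, 1.04 and 1.21, 1.81 and 1.54, and 2.006 and 1.9997 in the same order of groups. Its difference was 0.54 (SE 0.16, 0.68 and 0.41 within the slides, limma adjusted p = 0.16, and 0.10 with the block). The highest level of Fzd2 was in CHIR_11-16, not in the cultures with the longer agonist treatment.

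Fzd7 stood at -1.14 and -1.22 in WiBi_0-11, -2.16 and -1.97 in WiBi_0-16, -1.71 and -1.78 in CHIR_8-16, and -1.12 and -1.10 in CHIR_11-16. On this probe WiBi_0-11 and CHIR_11-16 were close to each other, with a difference of 0.07, and the other groups were lower. Against WiBi_0-11 the difference in WiBi_0-16 was -0.89 (SE 0.16, limma adjusted p = 0.99992, and SE 0.13, adjusted p = 0.39 with the block). In CHIR_8-16 the difference was -0.57 (SE 0.16, limma adjusted p = 0.39, and SE 0.13, adjusted p = 0.12 with the block). Its second probe gave 0.19 for CHIR_8-16, the opposite sign, so the 2 probes of Fzd7 disagree there. For CHIR_11-16 the second probe gave 0.61, with 0.52 and 0.71 within the slides. In WiBi_0-16 the second probe gave -0.52, with -1.03 within slide 2 and -0.01 within slide 3. The second Fzd2 probe gave 0.90 for the agonist comparison but was well above background on 2 of the 4 inhibitor-only arrays.

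**Figure D3:**
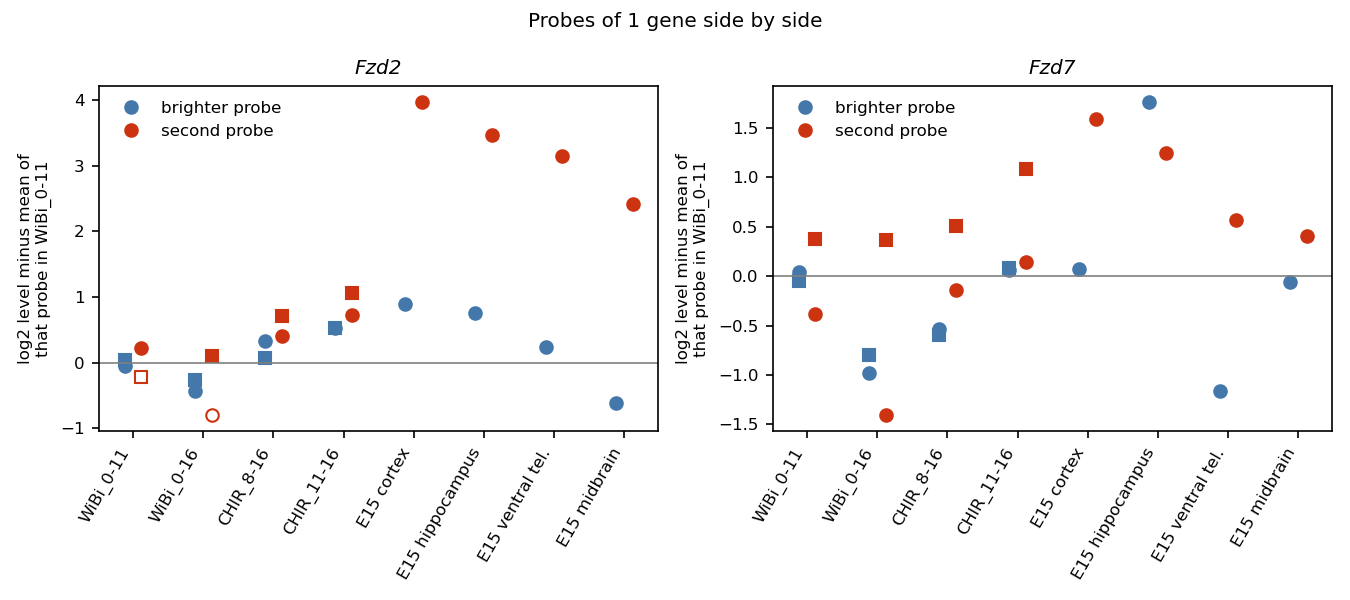
Log2 level of both probes of Fzd2 and Fzd7 minus the mean of that probe in WiBi_0-11, for the culture groups (circles replicate 1, squares replicate 2, open where not well above background) and the E15 tissues. In E15 hippocampus the brighter Fzd7 probe is the highest of the tissues, whereas the second probe is highest in cortex.

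Fzd4, Fzd9 and Fzd10 form the next subfamily; Fzd4 is also the receptor for Norrin. Fzd4 stood at -2.46 and -2.43 in WiBi_0-11, -2.57 and -2.78 in WiBi_0-16, -1.48 and -2.0 in CHIR_8-16, and -2.30 and -2.52 in CHIR_11-16. CHIR_8-16 had the highest group mean, 0.71 above WiBi_0-11 (SE 0.23, 0.98 and 0.43 within the slides). That difference missed the threshold (limma, adjusted p = 0.44, and 0.12 with the block). For Fzd9 the same comparison gave 1.58 (SE 0.22, 3.00-fold, limma adjusted p = 0.19, and 0.060 with the block). CHIR_11-16 exceeded WiBi_0-11 by 0.80 for Fzd9 (SE 0.20 and limma adjusted p = 0.31, both with the block). CHIR_8-16 exceeded CHIR_11-16 by 0.79 for Fzd9 (limma, adjusted p = 0.31 with the block). Neither difference passed the threshold with or without the block.

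Fzd10 had the largest spread of any receptor. It stood at -4.52 and -2.97 in WiBi_0-11, -5.86 and -4.77 in WiBi_0-16, -4.84 and 1.03 in CHIR_8-16, and 0.08 and -1.18 in CHIR_11-16. The CHIR_8-16 replicates differed by 5.87, so that replicate 1 lay among the inhibitor-only arrays and replicate 2 was the highest of the 8. Fzd10 was well above background on 3 of 4 inhibitor-only arrays, so its difference rests in part on a signal that was not well above background. The agonist difference of 3.30 (SE 1.23) missed the threshold (limma, adjusted p = 0.24, and 0.13 with the block). It ran from 2.26 to 3.32 over 5 scalings and from 2.55 to 4.50 when 1 array was left out of the fit with no block. CHIR_8-16 against WiBi_0-11 gave -0.32 within slide 2 and 3.99 within slide 3. CHIR_8-16 against CHIR_11-16 gave -4.92 and 2.21, and no direction is read from either comparison.

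The summed level of 5 midbrain markers (En1, En2, Pax2, Pax7 and Otx2), as percent of the 75th percentile, was 62.3 and 240 in WiBi_0-11, 71.6 and 90.3 in WiBi_0-16, 144 and 875 in CHIR_8-16, and 483 and 260 in CHIR_11-16. Otx2 gave 57.9% to 89.7% of these sums, with a log2 level of 0.07 and 2.97 in the CHIR_8-16 replicates, whereas En1 was well above background on 0 of 8 culture arrays. The mean log2 level over the 5 markers gave another order, with WiBi_0-11 replicate 2 (-2.87) above both CHIR_11-16 arrays (-3.08 and -3.06). Other lists also differed between the CHIR_8-16 replicates. The sums were 128 and 405 for 5 pluripotency markers and 2612 and 1154 for 7 ventral telencephalon markers. The pluripotency sums differed more between the replicates of WiBi_0-11 (114 and 836) and CHIR_11-16 (90.9 and 696), and were 167 and 140 in WiBi_0-16. The part of such cells in the Fzd10 values was not tested.

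**Figure D4:**
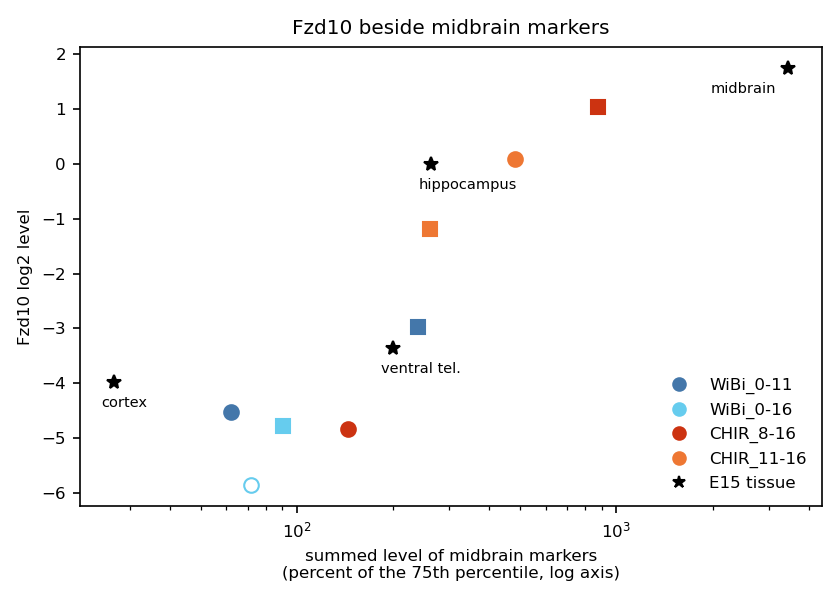
Log2 level of Fzd10 against the summed level of 5 midbrain markers (percent of the 75th percentile, log axis), 1 point per array, with circles for replicate 1, squares for replicate 2, stars for E15 tissues and an open symbol where Fzd10 was not well above background. The CHIR_8-16 replicates lie far apart on both axes, at 144 and 875 for the markers.

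Fzd3 and Fzd6, which take part in planar cell polarity and, for Fzd3, in axon growth, differed in how far they were measured. Fzd6 was well above background on 0 of 4 inhibitor-only arrays, on both CHIR_11-16 arrays and on replicate 1 of CHIR_8-16. It stood at -5.51 and -5.74 in WiBi_0-11, -6.88 and -7.12 in WiBi_0-16, -3.50 and -5.05 in CHIR_8-16, and -4.94 and -4.75 in CHIR_11-16. Since its filter was met only through an agonist group, no test of its agonist difference is read. On the scale used here the agonist mean lay 1.75-fold above the inhibitor-only arrays when these were given a floor. Each was set at the higher of its dimmest signal well above background and the probe's own signal. The agonist mean includes replicate 2 of CHIR_8-16, which was not well above background, so 1.75-fold is not a lower bound. That fold was computed on this scale only. The fitted log2 difference was 1.75 here, 1.01 in the deposited table and 0.40 with normexp and quantile normalization. Its size thus depends on the scaling. Between WiBi_0-16 and WiBi_0-11 no fold is given, since both were not well above background. Fzd3 stood between -0.10 and 0.27 on all 8 culture arrays, with a range of group means of 0.31, the smallest of the 10.

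Fzd5 and Fzd8 had lower means with the agonist, by -0.26 (SE 0.24) and -0.21 (SE 0.23) on the log2 scale, and neither passed the threshold (limma, adjusted p = 0.76 and 0.83, or 0.50 and 0.58 with the block). Within the slides Fzd8 gave -0.24 and -0.18, but Fzd5 gave 0.03 and -0.55, so its sign differed between slides. Fzd5 stood at -3.71 and -3.35 in WiBi_0-11, -3.64 and -2.62 in WiBi_0-16, -3.80 and -3.61 in CHIR_8-16, and -3.50 and -3.47 in CHIR_11-16, and WiBi_0-16 spanned nearly the whole range. Fzd8 stood at -0.25 and -0.67, -0.04 and -0.45, -0.70 and -1.04, and -0.06 and -0.43 in that order. CHIR_8-16 was below CHIR_11-16 by a log2 difference of -0.62 for Fzd8 (limma, adjusted p = 0.22 with the block), with -0.64 and -0.61 within the slides. Fzd8 was the 1 receptor whose slide difference passed, at -0.38 on slide 3 relative to slide 2 (limma, adjusted p = 0.021).

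In the remaining comparisons 0 of 10 receptors were called. The share of all genes called was 0.0117% without and 0.309% with the block for CHIR_8-16 against WiBi_0-11, and 0% and 0.0117% for CHIR_11-16 against WiBi_0-11. It was 0% and 0.0117% for WiBi_0-16 against WiBi_0-11 and 0% and 0.00783% for CHIR_8-16 against CHIR_11-16. Over the 4 groups together it was 0% and 0.0548%. At an unadjusted p under 0.05 in the limma fit with no block stood 3, 2, 1 and 3 of the 9 receptors other than Fzd6 in these 4 pairwise comparisons and 4 over the 4 groups, beside 9.49%, 4.53%, 2.62%, 3.71% and 8.70% of genes after the same omission. The comparisons against WiBi_0-11 share its arrays.

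Of the other listed genes of the pathway, 70 of 84 were measured. Without the block 0 were called in any comparison, and with it 5 were higher and 0 lower in agonist cultures, of the 65 that did not pass the filter through agonist groups alone. Of the 24456 genes left after the same omission 415 were called higher and 343 lower with the block. Leaving out 1 array left 0 to 3 of all genes called in that fit, so at least 2 of these 5 calls were lost in each case. The 5 were Lef1, a nuclear partner of beta-catenin, by 2.09 (SE 0.42), the feedback inhibitor Nkd1 by 1.95 (SE 0.25), and Sp5, a transcription factor induced by WNT signals, by 4.20 (SE 0.69). Rnf43, which removes Frizzled receptors from the membrane, was higher by 1.03 (SE 0.21, limma adjusted p = 0.049) and Sfrp4, a secreted antagonist, by 1.13 (SE 0.19). The ligand Wnt10a was well above background on 0 of 4 inhibitor-only and on 4 of 4 agonist arrays, at least 5.61-fold higher, and is not counted since it passed the filter only through agonist groups. In CHIR_8-16 against WiBi_0-11 with the block Lef1 (2.97) and Nkd1 (2.04) were higher and the ligand Wnt7a lower (-1.82). Of the 24456 genes 14 were called higher and 57 lower there. Without either WiBi_0-11 array 0 of all genes were called there. In the other comparisons 0 were called with the block.

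The genes most like 3 receptors over the 8 culture arrays, after each slide's mean was removed, are a description with no test. Fzd9 was closest to Cxcl5 (r = 0.996, well above background on 3 of 8 arrays), Cbln4 (0.993) and Dennd2a (0.992). Fzd10 was closest to Mcm9 (0.991), Rab3ip (0.986) and Acads (0.979), and Fzd6 to Eef1d (0.990), E2f1 (0.987) and Rplp2 (0.985). Fzd6 itself was well above background on 3 of 8 arrays, so its likeness rests in part on dim signals. All points share the arrays and their scaling.

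In the E15 tissues, where 1 array per tissue allows no test, Fzd10 varied most. Its level was -3.97 in cortex, 0.00 in hippocampus, -3.35 in ventral telencephalon and 1.75 in midbrain, so that midbrain exceeded hippocampus 3.36-fold and cortex 52.6-fold. Fzd9 stood at 1.20, 2.91, 0.65 and 1.05 in the same order, 3.27-fold higher in hippocampus than in cortex. Fzd7 stood at -1.11, 0.59, -2.34 and -1.24, 3.23-fold higher in hippocampus than in cortex by its brighter probe, but its second probe read -1.03 in cortex and -1.38 in hippocampus. Choroid plexus markers summed to 23.3, 3349, 310 and 2174 percent of the 75th percentile in cortex, hippocampus, ventral telencephalon and midbrain, with 3, 5, 5 and 6 of 6 well above background. Mesenchyme and meninges markers summed to 380, 1932, 239 and 4699, with 7, 8, 5 and 8 of 8 well above background. Both lists were thus higher in hippocampus and midbrain, where Fzd10 was also higher, and their part in these levels was not tested. Fzd7, Fzd9 and Fzd10 were at least 2-fold higher in 1 tissue than in each other, as were 10.1% of 28179 genes, 2.02% for hippocampus and 5.03% for midbrain.

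Fzd8 and, by its brighter probe, Fzd5 were highest in cortex and lowest in midbrain. Fzd8 stood at -0.44, -1.49, -1.03 and -2.13 in cortex, hippocampus, ventral telencephalon and midbrain, and Fzd5 at -3.61, -4.28, -3.97 and -4.90. Fzd2 shared that order of ends, with 2.36, 2.24, 1.71 and 0.86. The dim second probe of Fzd5 was highest in midbrain (-5.51), the 1 tissue where it was well above background, and read -5.88 in cortex. Fzd1 had 2.51, 3.31, 1.49 and 3.15, lowest in ventral telencephalon. The ratio of the highest to the lowest tissue was 1.28 for Fzd4, 1.83 for Fzd3 and 1.89 for Fzd6.

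**Figure D5:**
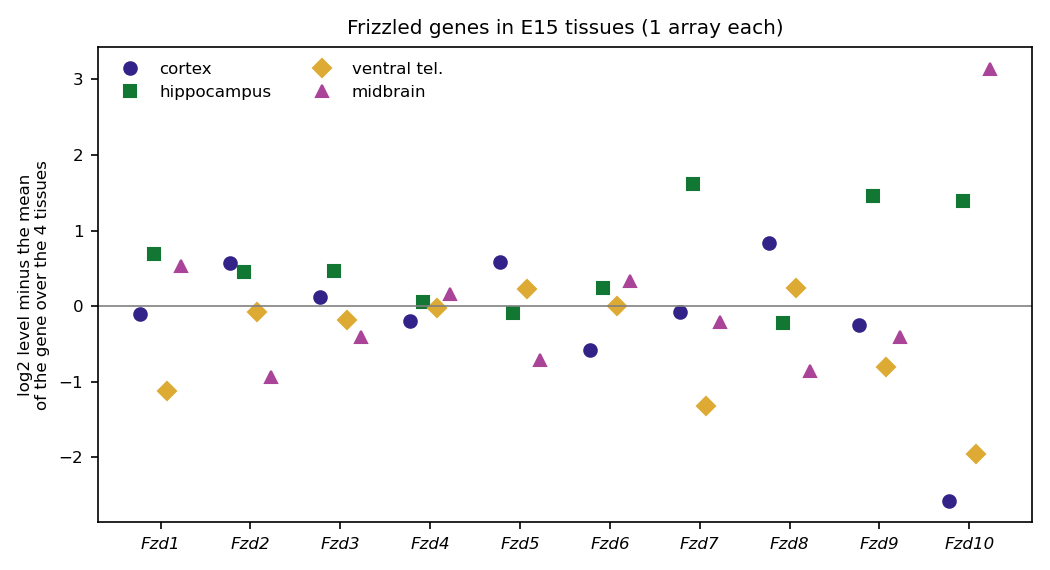
Log2 level of each Frizzled gene in the 4 E15 tissues minus the mean of the gene over the tissues, 1 array per tissue. Hippocampus is the highest tissue for Fzd1, Fzd3, Fzd7 and Fzd9, and midbrain for Fzd4, Fzd6 and Fzd10. Only for Fzd7, Fzd9 and Fzd10 is the highest tissue at least 2-fold above each other tissue. The brighter probe is shown, and the second Fzd7 probe is highest in cortex.

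Set beside the tissues, Fzd3 lay above all 4 of them on all 8 culture arrays, as did 14.0% of genes. Fzd4 and Fzd6 lay below all 4 tissues on all 8, as did 7.16% of genes; no fold is given for Fzd6, which was not well above background on 5 culture arrays. Endothelial markers summed to between 408 and 908 percent of the 75th percentile in cultures and 1764 and 2080 in tissues, with 4 to 6 of 7 well above background in cultures and 7 of 7 in tissues. Microglia and blood markers summed to between 109 and 192 and between 19199 and 26838, with 3 to 5 of 8 and 8 of 8 well above background. In cultures most of the endothelial sum came from Kdr and most of the other from Csf1r, and in tissues most of the latter from Hba-a1. Kdr (1.88 to 3.11 in cultures, 2.56 to 3.18 in tissues) and Csf1r (-0.13 to 0.60 and 0.17 to 0.33) overlapped. The mean log2 level of the lists did not, with -4.33 to -3.54 and -0.10 to 0.38 for endothelium. For microglia and blood it was -5.70 to -4.19 and 0.62 to 0.87. Tek was well above background on 0 of 8 culture arrays. The part of these cells in the difference was not tested. The other 7 receptors overlapped the tissues, by the brighter probe where a gene has 2. The second Fzd2 probe did not, with -5.80 to -3.94 on the 8 culture arrays and -2.58 to -1.02 in the 4 tissues. It was well above background on 6 of the 8 culture arrays, and the 2 probes of Fzd2 disagree there. Cultures and tissues lay on different slides and also differed in strain and sex, so tissue cannot be told apart from slide, strain or sex.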

How the data were processed

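Spot intensities, per the file headers, of these arrays (Agilent design 028005, placed on mm9) were extracted with Feature Extraction 10.7.3.1, which the submitters' processing notes give as 9.1 beside limma with no version. The deposited series table holds log2 values that the authors normalized; it served only as an alternative. Levels were log2 processed intensity minus that of the 75th percentile, averaged over unmarked spots. A probe passed where 1 or more culture groups had it well above background on each of their arrays and all 8 culture arrays kept an unmarked spot. The brightest passing probe stood for each of 25539 genes. Groups were compared in limma 3.58.1 (R 4.3.3) with Benjamini-Hochberg adjustment over all genes. Arrays with the same replicate number share a slide; their deviations from group means correlated at 0.579 to 0.667, so the slide was also a block. The fits were tested on simulated data. The 10 members, the lists and the tests were chosen with earlier results of these data known. All 10 receptors, called pathway genes (up to 4 per list) and the 3 genes most like each of the 3 receptors with the widest group means were named.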

Additional observations from a re-analysis of the deposited data

How the results depend on the processing

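The number of arrays, 2 per culture group and 1 per tissue, limits the precision. With the slide (replicate number) as a replicate block, the genes called among all 25539 went from 3 to 79 for CHIR_8-16 against WiBi_0-11, from 0 to 3 for CHIR_11-16 against WiBi_0-11 and for WiBi_0-16 against WiBi_0-11, from 0 to 2 for CHIR_8-16 against CHIR_11-16, from 2 to 820 for agonist against inhibitor-only cultures and from 0 to 14 over the 4 groups. The Frizzled genes called went from 0 to 1 in the agonist comparison, with the block and with a trended prior (Fzd9, limma adjusted p = 0.037), and the block changed no other Frizzled call. In the same order of comparisons, the calls over all genes were 5, 2, 0, 1, 15 and 1 with median scaling and 11, 3, 3, 1, 0 and 6 with quantile normalization. Normexp with quantile normalization gave 12 for the agonist comparison and 3 over the 4 groups. A trended prior gave 1 for CHIR_8-16 against CHIR_11-16, 530 for the agonist comparison and 2 over the 4 groups, and the contrast in the 4-group fit gave 1. With no filter on dim probes 0 were called for CHIR_8-16 against WiBi_0-11 and in the agonist comparison (limma, 2122 and 3659 genes at an unadjusted p under 0.05), and with the mean of passing probes 0 for CHIR_8-16 against WiBi_0-11 (2467). The cause of these changes was not tested.

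Leaving out 1 array, without the block or, chosen after seeing the data, with it, gave 0 to 110 genes for CHIR_8-16 against WiBi_0-11, 0 to 1 for WiBi_0-16 against WiBi_0-11, 0 to 4 for CHIR_8-16 against CHIR_11-16 and 0 to 3 in the agonist comparison. The 110 came with the block without CHIR_8-16 replicate 1, and without CHIR_8-16 replicate 2 it gave 85. A lone array of a group was assumed to vary like the other groups.

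Some differences changed sign, among them those of Fzd10 and Fzd6 between CHIR_8-16 and CHIR_11-16. For WiBi_0-16 against WiBi_0-11, Fzd1 went from -0.071 to 0.086 with normexp and 0.088 in the deposited table. For CHIR_11-16 against WiBi_0-11, Fzd5 went from 0.047 to -0.0018 with normexp. Leaving out 1 array without the block, the log2 difference ran from -0.326 to 0.184 for Fzd1 and -0.113 to 0.916 for Fzd5 (WiBi_0-16 against WiBi_0-11). For CHIR_11-16 against WiBi_0-11 it ran from -0.166 to 0.027 for Fzd3, -0.077 to 0.144 for Fzd4, -0.13 to 0.224 for Fzd5 and -0.0014 to 0.42 for Fzd8. For CHIR_8-16 against CHIR_11-16 it ran from -4.29 to 1.58 for Fzd10 and -0.203 to 1.34 for Fzd6, for CHIR_8-16 against WiBi_0-11 from -1.1 to 4.77 for Fzd10 and -0.347 to 0.0064 for Fzd5, and in the agonist comparison from -0.131 to 0.00032 for Fzd3. With the block and 1 array left out, the sign changed for Fzd1 (0.07) and Fzd5 (-0.018) in WiBi_0-16 against WiBi_0-11, for Fzd3 (0.027 and 0.023), Fzd4 (-0.142) and Fzd5 (-0.202) in CHIR_11-16 against WiBi_0-11, and for Fzd10 (1.35 and 0.692), Fzd5 (0.032) and Fzd6 (-0.158) in CHIR_8-16 against CHIR_11-16. It also changed for Fzd10 in CHIR_8-16 against WiBi_0-11 (-0.868) and for Fzd3 (0.022) and Fzd7 (-0.016) in the agonist comparison. In the tissues the count of 3 genes became 2 with the mean of passing probes, which leaves out Fzd7, and 4 at 1.5-fold.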
